A study of Homo sapiens with 6 samples.

Results

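The 10 genes described here are those of the cadherin switch and of epithelial-mesenchymal transition (EMT): the adhesion proteins CDH1, CDH2, CDH3 and EPCAM, the transcription factors ZEB1, ZEB2, SNAI1 and SNAI2, the filament protein VIM and the matrix protein FN1. Every probeset annotated to one of them was taken from the table of array values, which gave 12 of 32321 probesets. ZEB2 and EPCAM had 2 probesets each, the other 8 genes had 1, and 0 of the 12 were shared with another gene. The 10 genes stand among 18404 genes with a probeset of their own. The set was selected on biology and partly on measured values, the lower log2 values of CDH1, CDH3 and EPCAM in the same comparison, so the differences of the 10 genes are a description and carry no test.

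RNA was measured on 6 Affymetrix arrays. Of these, 3 were of HEK293 Flp-In cells with constitutive overexpression of FLAG-HA-tagged TRIM71 (FHA-TRIM71), called the TRIM71 line here, and 3 were of wild-type parental HEK293 Flp-In cells. HEK293 cells derive from human embryonic kidney, and Flp-In cells hold a recombination site for a transgene. TRIM71 is an RNA-binding protein of stem and progenitor cells. Both lines grew in DMEM with glutamine and 10% FCS, a serum. Hygromycin B at 50 ug/ml is named for the TRIM71 line only, so drug and transgene cannot be told apart. Whether that line is a clone or a pool, and what promoter drives the transgene, is not given in the sources used here. The arrays are described as a triplicate, and nothing says whether these were separate cultures, so every error and p-value given here measures only the spread between these arrays, which may be technical.

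In an epithelial-mesenchymal transition, cells give up E-cadherin junctions and gain N-cadherin, vimentin filaments and a fibronectin matrix, in development, wound repair and cancer. ZEB and SNAI proteins are zinc finger repressors that bind E-boxes in the CDH1 promoter. MicroRNAs of the miR-200 family repress ZEB1 and ZEB2, and ZEB proteins repress the miR-200 loci in turn. HEK293 cells are known to hold epithelial, mesenchymal and neuronal transcripts side by side.

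The mature miR-200 sequences are shown because ZEB1 and ZEB2 are their known targets, with the seed, bases 2 to 8, in capitals. They fall into 2 seed groups, and the sequences are those of RefSeq, GRCh38.p14.
hsa-miR-200b-3p: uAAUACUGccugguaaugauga
hsa-miR-200c-3p: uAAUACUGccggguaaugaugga
hsa-miR-429: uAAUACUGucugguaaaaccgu
hsa-miR-141-3p: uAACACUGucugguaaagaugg
hsa-miR-200a-3p: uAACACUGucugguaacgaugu

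All 5 lie on the plus strand of GRCh38.p14. On chromosome 1 are miR-200b (chr1:1167160-1167181), miR-200a (chr1:1167916-1167937) and miR-429 (chr1:1169055-1169076), and on chromosome 12 are miR-200c (chr12:6963742-6963764) and miR-141 (chr12:6964155-6964176). These microRNAs were looked up after the values of the 10 genes had been seen, and the mature forms were not measured here. Each of the 5 loci had 1 probeset. Their log2 differences, TRIM71 minus parental, lay between -0.06 for MIR200B and 0.10 for MIR200A, and the groups overlapped at every locus. The limma fit described under processing gave adjusted p from 0.53 to 0.90. Mean levels lay between percentiles 11.4 and 41.1 of all probesets.

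The promoter windows of ZEB1 and ZEB2 are shown because both genes were higher in the TRIM71 line. RefSeq windows of GRCh38.p14, from 250 bases before to 50 after a transcript start, were found for 5 of the 10 genes, 12 windows in all, of which 7 belonged to ZEB1. The E-box letters CACCTG, which read CAGGTG on the other strand, were searched on both strands and are in capitals. They were in 2 of the 12 windows, both of ZEB1, against 20.6% of all 35116 windows. The ZEB1 window printed was picked for having the most copies, 3, of the 7 ZEB1 windows, of which 1 other holds 1 copy and 5 hold 0. The ZEB2 window holds 0. A match of letters is a description of the window and shows no binding.
ZEB1 chr10:31318966-31319265, plus strand: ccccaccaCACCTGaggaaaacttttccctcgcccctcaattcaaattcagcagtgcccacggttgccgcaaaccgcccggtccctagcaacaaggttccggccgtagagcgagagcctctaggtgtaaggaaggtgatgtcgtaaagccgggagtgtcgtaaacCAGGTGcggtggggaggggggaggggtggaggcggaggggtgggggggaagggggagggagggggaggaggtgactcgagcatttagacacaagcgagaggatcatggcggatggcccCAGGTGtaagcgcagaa
ZEB2 chr2:144520070-144520369, minus strand: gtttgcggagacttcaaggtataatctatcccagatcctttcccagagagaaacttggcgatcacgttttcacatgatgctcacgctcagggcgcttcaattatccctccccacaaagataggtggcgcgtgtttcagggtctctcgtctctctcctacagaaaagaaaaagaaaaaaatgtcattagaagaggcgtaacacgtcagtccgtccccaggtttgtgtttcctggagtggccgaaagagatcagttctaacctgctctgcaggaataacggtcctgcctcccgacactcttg

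Values are log2 expression as deposited, means are ± SD with n = 3 arrays per group, and differences are TRIM71 minus parental with the standard error (SE) of the limma fit. A probeset's brightness depends on its probes, so levels are compared between arrays and not between genes. A percentile, or a place above or below the median of all probesets, gives a probeset's brightness on these arrays and not the amount of its RNA. The overexpressed gene TRIM71 read 10.63, 10.86 and 10.72 in the TRIM71 line, against 7.23, 7.54 and 7.44 in the parental line, which is higher in the line labelled for it. Pearson correlations were 0.996 to 0.997 within groups and 0.991 to 0.994 between them. Of 9 measured markers written down for HEK293, 8 had a parental mean at or above the median of all probesets, 6.94, and NEFM did not. Their array means were 8.87 to 8.95 in the TRIM71 line and 9.13 to 9.18 in the parental line, with 1 of the 9 risen and 3 fallen, and the part of this in the values below was not tested. A parental mean at or above that median was found for 1 of 10 fibroblast, 1 of 7 leukocyte and 1 of 7 endothelial markers. It was found for 6 of 7 epithelial markers, which include CDH1 and EPCAM, chosen for their lower values. Of these 7, 4 fell, 0 rose and 3 did not pass, namely KRT18 (-0.05), KRT19 (-0.13) and CLDN4 (0.06). Over all genes, 10.0% rose and 12.2% fell at an adjusted p under 0.05 in the limma fit. Because whole cultures were measured, fewer cells of a kind and less RNA per cell cannot be told apart.

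**Figure D1:**
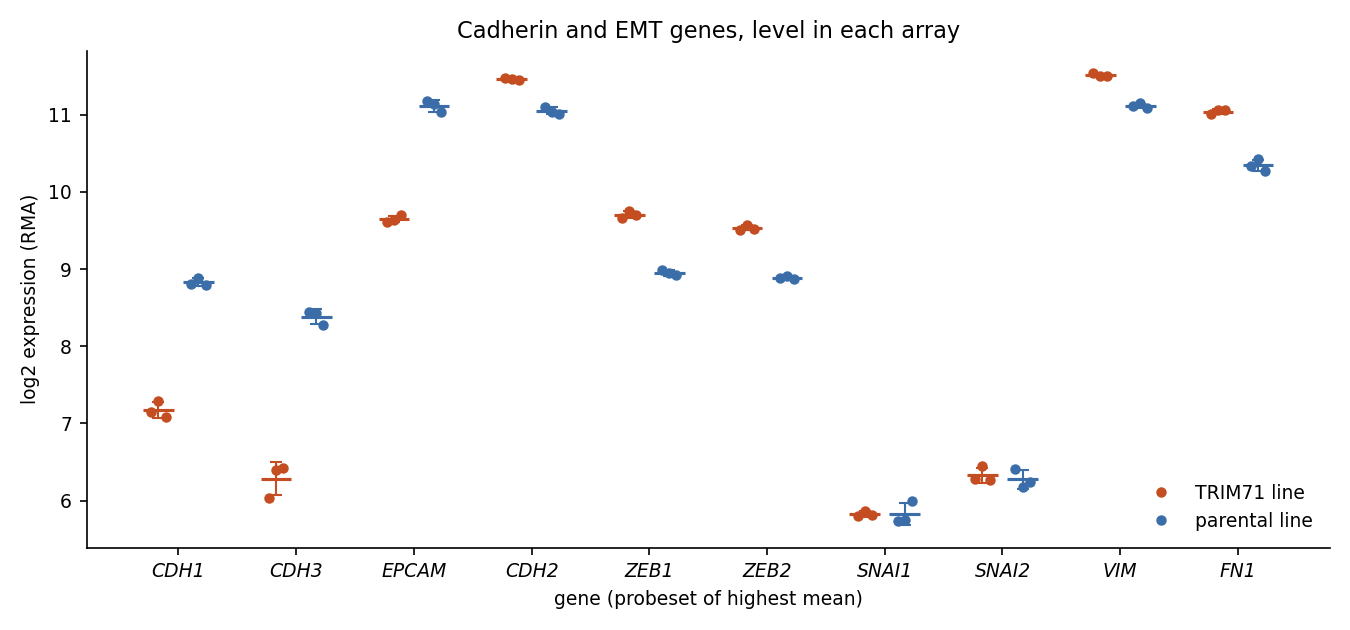
Log2 expression of the 10 genes in each array, at the probeset of highest mean; points are arrays, with the TRIM71 line left of the parental line, short lines are means and bars are SD (n = 3). CDH1, CDH3 and EPCAM sit lower in the TRIM71 line, CDH2, ZEB1, ZEB2, VIM and FN1 sit higher, and the groups overlap for SNAI1 and SNAI2.

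CDH1, or E-cadherin, the calcium-dependent adhesion protein of epithelial adherens junctions, read 7.15, 7.29 and 7.08 in the TRIM71 line, against 8.81, 8.89 and 8.80 in the parental line. All 3 TRIM71 arrays lay at least 1.51 below all parental arrays on the log2 scale. The means were 7.18 ± 0.11 in the TRIM71 line and 8.83 ± 0.05 in the parental line, a difference of -1.66 (SE 0.07), or 3.15-fold lower.

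CDH3, or P-cadherin, a classical cadherin of basal epithelial layers, had the largest difference of the 10 genes. It read 6.04, 6.40 and 6.42 in the TRIM71 line, against 8.45, 8.43 and 8.27 in the parental line. The difference was -2.10 (SE 0.11), or 4.28-fold lower. The TRIM71 arrays spread over 0.38, with replicate 1 apart from the others, and the parental arrays over 0.18. Both spreads are small beside the gap of 1.85 between the groups. The means were 6.28 ± 0.21 in the TRIM71 line and 8.38 ± 0.10 in the parental line.

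EPCAM, an epithelial cell adhesion protein that does not belong to the cadherins, read 9.61, 9.64 and 9.70 in the TRIM71 line, against 11.18, 11.14 and 11.03 in the parental line, at its brighter probeset. The difference was -1.47 (SE 0.06), or 2.76-fold lower, and the groups did not overlap. The other probeset read 9.64, 9.67 and 9.58 in the TRIM71 line, against 11.13, 11.07 and 11.05 in the parental line, a difference of -1.45 (SE 0.05). The pair lay within 0.12 of each other on every array. Both carry the same 8 transcript accessions, so they are not separate evidence. At the brighter probeset the means were 9.65 ± 0.04 in the TRIM71 line and 11.12 ± 0.08 in the parental line.

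CDH2, or N-cadherin, the classical cadherin of neural and mesenchymal cells, went the other way. It read 11.48, 11.46 and 11.45 in the TRIM71 line, against 11.10, 11.04 and 11.01 in the parental line. The arrays of each line lay within 0.09 of each other, and the lowest TRIM71 array was 0.36 above the highest parental array. The difference was 0.42 (SE 0.05), or 1.34-fold higher, the second smallest among the 5 higher genes. The means were 11.47 ± 0.01 in the TRIM71 line and 11.05 ± 0.04 in the parental line.

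CDH2 and CDH1 can be set against each other within each array, where the scale of an array cancels. CDH1 was chosen for its lower values in this comparison, so the ratio is a description and no test. The log2 ratio of CDH2 over CDH1, set to a mean of 0 in the parental line, was 2.11, 1.96 and 2.15 in the TRIM71 line, against 0.07, -0.06 and -0.01 in the parental line. The mean was 2.07 ± 0.10 in the TRIM71 line. This ratio shows unequal change of both probesets. Most of it came from CDH1, whose difference was -1.66, while that of CDH2 was 0.42.

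**Figure D2:**
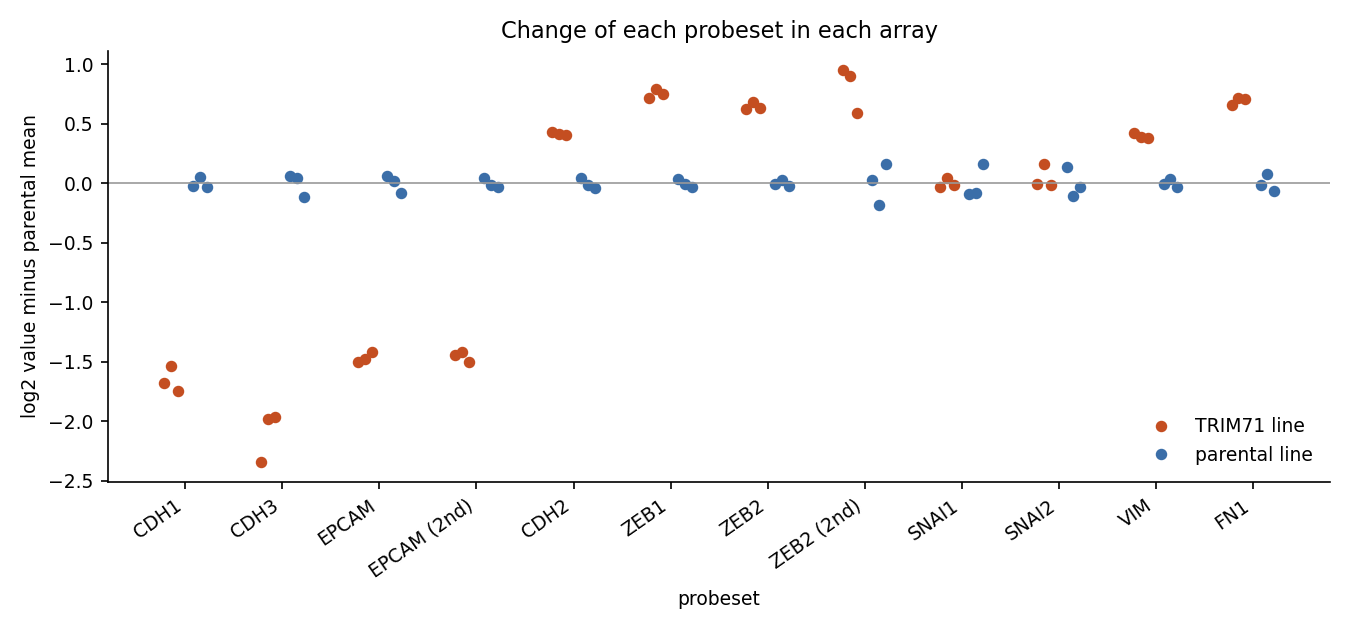
Change of the 12 probesets in each array, as log2 value minus the parental mean of that probeset; points are arrays, with the TRIM71 line left of the parental line. The means of the TRIM71 arrays lie at -2.10 for CDH3, -1.66 for CDH1 and -1.47 for EPCAM, between 0.40 and 0.82 for the probesets of CDH2, ZEB1, ZEB2, VIM and FN1, and around 0 for SNAI1 and SNAI2.

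Of the EMT transcription factors, the ZEB pair differed between the lines and the SNAI pair did not separate. ZEB1, a zinc finger and homeodomain repressor of CDH1, read 9.67, 9.75 and 9.70 in the TRIM71 line, against 8.99, 8.94 and 8.92 in the parental line. The groups were 0.68 apart at their nearest arrays, and the difference was 0.76 (SE 0.05), or 1.69-fold higher.

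ZEB2, its paralogue, read 9.51, 9.58 and 9.52 in the TRIM71 line, against 8.88, 8.91 and 8.87 in the parental line, at its brighter probeset. The difference was 0.65 (SE 0.05), or 1.57-fold higher. A dim probeset annotated to a single transcript read 6.13, 6.08 and 5.77 in the TRIM71 line, against 5.20, 4.99 and 5.33 in the parental line. It differed by 0.82 (SE 0.13), in the same direction, with a spread within each line of 0.36 and 0.34. Both ZEB2 probesets thus had groups that did not overlap.

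SNAI1, or Snail, read 5.79, 5.87 and 5.81 in the TRIM71 line, against 5.74, 5.74 and 5.99 in the parental line. Its difference was 0.002 (SE 0.08). SNAI2, or Slug, read 6.27, 6.44 and 6.26 in the TRIM71 line, against 6.41, 6.17 and 6.24 in the parental line, with a difference of 0.05 (SE 0.08). The groups overlapped for both genes. Both probesets were below the median of all probesets in both lines, at percentiles 34.7 for SNAI1 and 41.3 for SNAI2.

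VIM, or vimentin, the intermediate filament protein of mesenchymal cells, read 11.54, 11.50 and 11.50 in the TRIM71 line, against 11.11, 11.15 and 11.08 in the parental line. The difference was 0.40 (SE 0.04), or 1.32-fold higher, and the nearest arrays of the lines were 0.35 apart. FN1, or fibronectin, a glycoprotein of the extracellular matrix, read 11.01, 11.06 and 11.06 in the TRIM71 line, against 10.33, 10.42 and 10.28 in the parental line. Its difference was 0.70 (SE 0.06), or 1.62-fold higher. For both genes the arrays of the lines did not overlap.

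Of the 10 genes, 8 passed (22.2% of all genes did): 3 were lower and 5 higher at an adjusted p under 0.05 in the fit over all probesets, where 12.2% and 10.0% of all genes were lower and higher. The same 3 and 5 had groups that did not overlap, against 43.6% of all genes, with 23.4% lower and 20.2% higher. By at least 1.5-fold, 3 were lower (2.71% of all genes) and 3 were higher, namely ZEB1, ZEB2 and FN1 (1.29% of all genes). These counts describe the choice of genes, which used the same comparison, so they are no test of the set. CDH1, CDH3 and EPCAM are the 3 lower genes and were chosen for their lower values, so their calls follow from that choice. The median difference was 0.22 over the 10 genes and -0.01 over all genes.

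In size, CDH3 ranked 10 among all genes by the lowest difference, CDH1 30 and EPCAM 49. Among the highest differences ZEB1 ranked 108, FN1 141, ZEB2 165, CDH2 609 and VIM 700. CDH1, CDH3 and EPCAM entered the set for their lower values in this comparison, so nothing is read from their ranks.

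**Figure D3:**
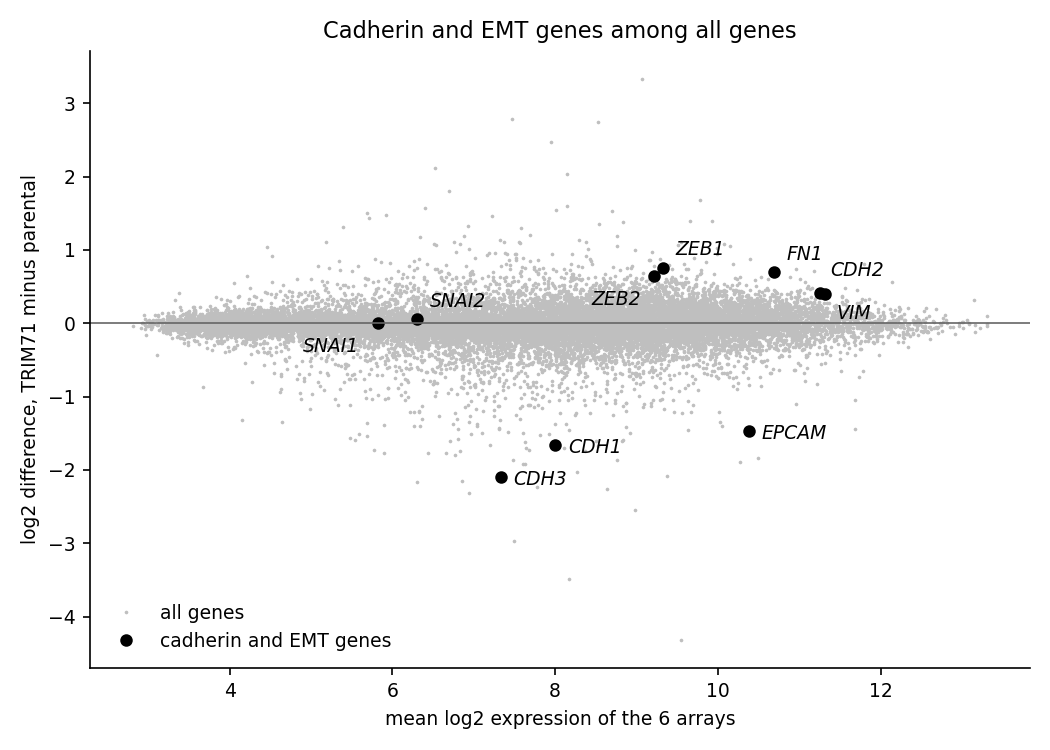
Log2 difference, TRIM71 minus parental, of each of 18404 genes against its mean log2 expression over the 6 arrays; grey points are all genes and black points the 10 cadherin and EMT genes. CDH1, CDH3 and EPCAM, which entered the set for their lower values, lie on the low side. SNAI1 and SNAI2 lie inside the cloud on the dim side.

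The genes with the most similar course over the 6 arrays were found by the Euclidean distance between log2 values, each gene taken relative to its parental mean, among 11098 other genes at or above the median brightness. Nearest to CDH1 were ZNF841 (distance 0.09), MAP7D2 (0.16) and RASSF5 (0.23), with log2 differences of -1.65, -1.62 and -1.74. Nearest to EPCAM were NEFL (0.09), ULBP1 (0.11) and FSTL4 (0.14). Nearest to ZEB1 were SLC27A6 (0.05), TMEM133 (0.06) and ETS1 (0.07). The distance weighs the size of a difference together with the scatter of the arrays.

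The genes beside each member on its chromosome were compared with it, 5 measured genes on each side in RefSeq order. CDH3 and CDH1 are neighbours on chromosome 16 and share the same 10 flanking genes. Of these, only ZFP90, the zinc finger gene next to CDH3, fell, to 7.66 ± 0.12 in the TRIM71 line against 8.47 ± 0.03 in the parental line (-0.82, SE 0.07, adjusted p = 0.0010). The other 9 did not pass and had differences between -0.05 for CHTF8 and 0.11 for SLC7A6. Over chromosome 16, 7.25% of 759 genes rose and 11.7% fell. The lower values therefore covered 3 consecutive measured genes, ZFP90, CDH3 and CDH1, and the median of the 10 flanking genes was -0.01.

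EPCAM lies on chromosome 2. Of its 10 neighbours, 3 rose, 0 fell and 7 did not pass, with a median of 0.15 and CRIPT (0.52), SOCS5 (0.33) and MSH6 (0.25) as those that rose. The MSH6 call ended without TRIM71 replicate 2, parental replicate 2 or parental replicate 3 (adjusted p up to 0.067). The EPCAM difference of -1.47 had the opposite sign to that median.

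ZEB2 and FN1 lie on chromosome 2 as well. Of the ZEB2 neighbours, 4 rose, 0 fell and 6 did not pass (median 0.17), with MBD5 higher by 0.69, ORC4 by 0.41 and QTMAN by 0.40. The ORC4 call ended without TRIM71 replicate 1 or 2 or parental replicate 2 or 3 (adjusted p up to 0.070). Of the FN1 neighbours, 5 rose, 1 fell and 4 did not pass (median 0.15), with LINC01963 higher by 0.81, BARD1 higher by 0.30 and SPAG16 lower by 0.54. With 10 genes on each side of FN1, 7 rose, 3 fell and 10 did not pass, and the median was 0.04. The BARD1 call ended without the same 4 arrays (adjusted p up to 0.054). Over the whole of chromosome 2, 28.0% of 1154 genes rose and 6.41% fell, against 8.84% and 12.6% of 17250 genes elsewhere. Its median difference was 0.08, against -0.02 elsewhere. The part of this regional difference in the ZEB2 and FN1 values was not tested.

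ZEB1 and VIM lie on chromosome 10, where 7.81% of 679 genes rose and 17.2% fell. Next to ZEB1, 3 of 10 neighbours rose and 1 fell (median 0.03), led by JCAD, a junction protein of endothelial cells (1.19, adjusted p = 1.3e-04), ARHGAP12 (0.55, adjusted p = 0.0011) and MAP3K8 (0.40, adjusted p = 0.0061). Next to VIM, ST8SIA6 (-0.76) and PTER (-0.57) fell, CUBN (0.34) rose and 7 did not pass (median 0.02). The CUBN call ended without TRIM71 replicate 2 or parental replicate 2 or 3 (adjusted p up to 0.066). With the replicate number as a further term of the fit, the calls of ST8SIA6 and CUBN both ended (adjusted p = 0.051 for each). With 10 genes on each side of VIM, 2 rose, 6 fell and 12 did not pass, and the median was -0.08.

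Of the 10 neighbours of CDH2 on chromosome 18, 1 rose, 2 fell and 7 did not pass (median -0.02). Over that chromosome, 14.0% of 264 genes rose and 11.7% fell. AQP4, a water channel, fell by 0.81 (adjusted p = 3.3e-04), and of the desmocollins, desmosomal cadherins beside CDH2, DSC3 fell by 0.71 and DSC2 rose by 0.62. Of the neighbours of SNAI1 on chromosome 20, 3 rose and 1 fell, the largest being SNORD12C (0.71), the transcription factor gene CEBPB (-0.49) and B4GALT5 (0.45). Next to SNAI2 on chromosome 8, PCMTD1 rose by 0.23 and 0 fell, and that call ended without any array but parental replicate 1 (adjusted p up to 0.093). Over chromosome 20, 9.53% of 535 genes rose and 7.29% fell, and over chromosome 8, 9.09% of 638 genes rose and 9.87% fell.

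**Figure D4:**
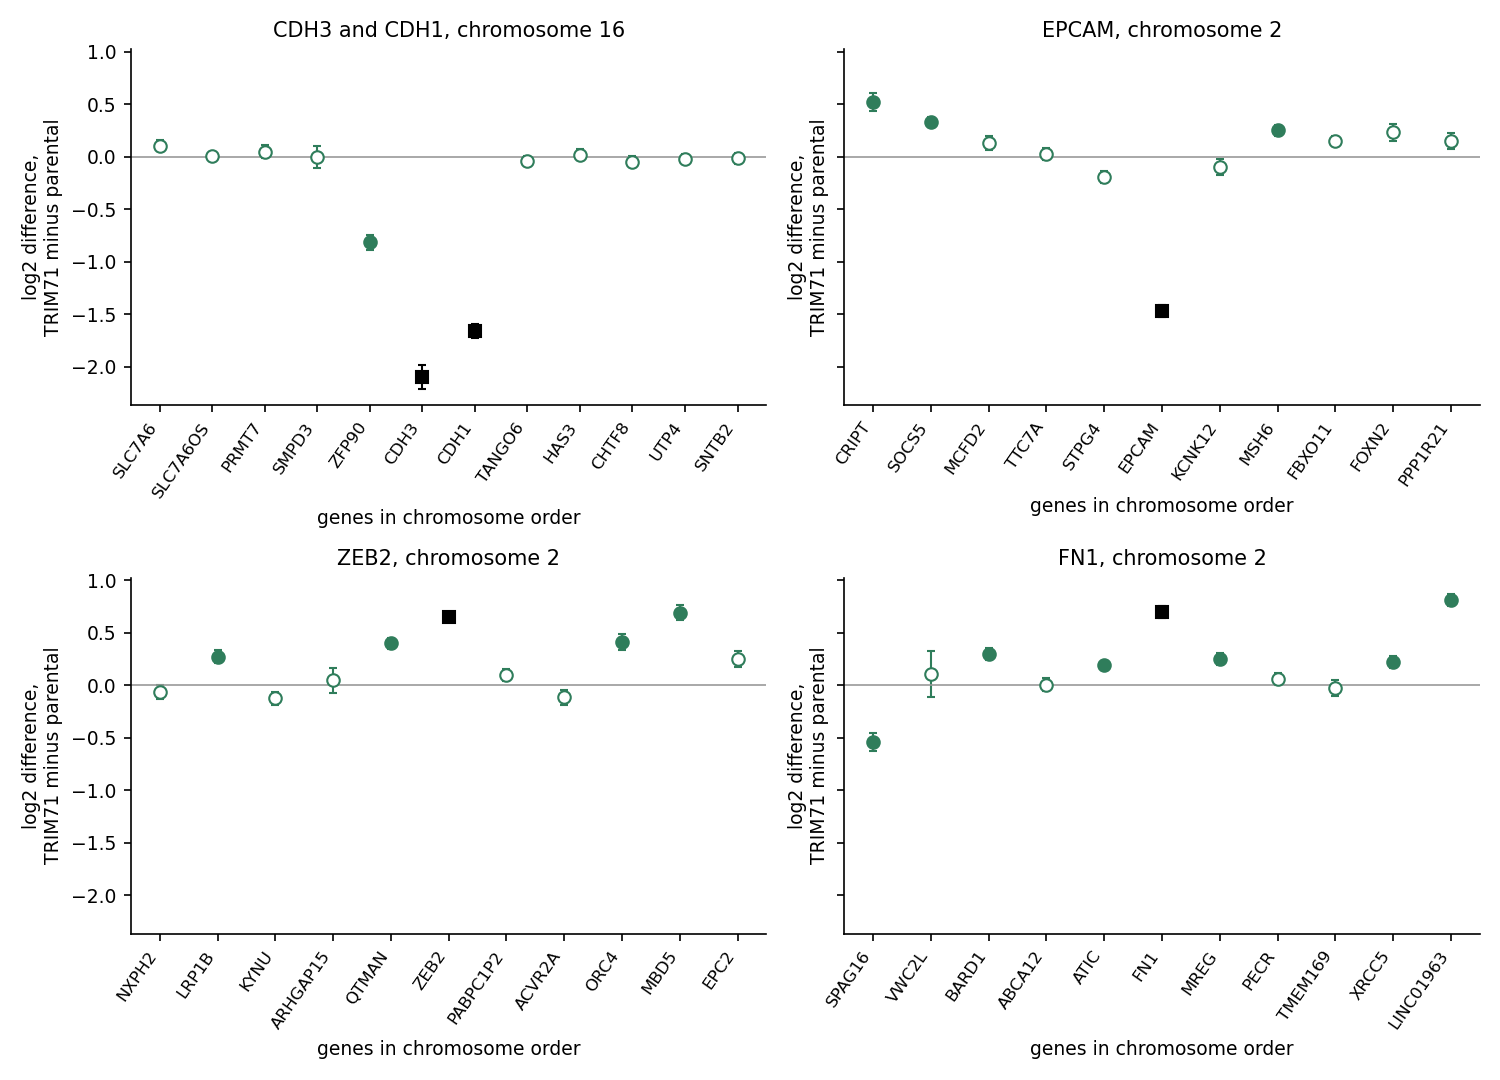
Log2 difference, TRIM71 minus parental, of CDH3 and CDH1, EPCAM, ZEB2 and FN1 (black squares) and of the 5 measured genes on each side (circles, filled at an adjusted p under 0.05), in chromosome order; bars are SE. ZFP90 lies at -0.82 beside CDH3 and CDH1 while the other flanking genes of chromosome 16 lie near 0, and EPCAM lies at -1.47 among neighbours between -0.20 and 0.52.

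Other genes of epithelial and mesenchymal states were taken from 7 lists that leave out the 10 genes. The lists were written with earlier results of these arrays known. Among 159 measured genes, 25 rose, 25 fell and 109 did not pass, against 10.0% of all genes risen and 12.2% fallen. Of 30 epithelial regulators and markers, 10 fell (33.3%), 1 rose and 19 did not pass, with a list median of -0.09 beside -0.01 for all genes. RAB25, a small GTPase of epithelial recycling endosomes, fell to 5.55 ± 0.07 in the TRIM71 line, against 7.32 ± 0.16 in the parental line (-1.77, adjusted p = 2.1e-04). BSPRY fell by 1.35 (adjusted p = 2.3e-04) and SPINT2, a serine protease inhibitor of epithelial surfaces, by 1.05 (adjusted p = 1.9e-04). The one that rose was FOXA1 (0.21, adjusted p = 0.037), a pioneer transcription factor, and leaving out any 1 of the 6 arrays ended that call (adjusted p up to 0.125).

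Junction genes moved both ways, and their counts are read beside the 12.2% of all genes that fell and the 10.0% that rose. Of 27 tight junction and desmosome genes, 6 fell, 5 rose and 16 did not pass (median 0.02). MARVELD3, a tight junction membrane protein, fell by 1.12 (adjusted p = 2.3e-04), CLDN1 by 0.74 and DSC3 by 0.71, while DSC2 (0.62), CLDN12 (0.42) and the scaffold TJP1 (0.42) rose. Of 14 adherens junction partners, which link cadherins to actin or act beside them, 3 fell, 3 rose and 8 did not pass (median 0.03). JUP, or plakoglobin, fell to 9.39 ± 0.08 in the TRIM71 line against 9.86 ± 0.01 in the parental line (-0.47, adjusted p = 0.0034). NECTIN3 (-0.40) and alpha-catenin CTNNA1 (-0.24) fell too, and NECTIN1 (0.29), NECTIN2 (0.25) and PKP4 (0.20) rose.

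Except for JUP, each of these adherens junction calls ended with some arrays left out. NECTIN3 lost it without TRIM71 replicate 1 or parental replicate 2 (adjusted p up to 0.054), and NECTIN2 without those or TRIM71 replicate 2 (up to 0.056). CTNNA1 lost it without TRIM71 replicate 1 or 2 or parental replicate 1 or 2 (up to 0.072), NECTIN1 without any array but TRIM71 replicate 1 (up to 0.075), and PKP4 without any 1 of the 6 (up to 0.128).

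In the main fit, the mesenchymal and matrix genes that passed all rose. Of 40 such genes, 9 rose (22.5%), 0 fell and 31 did not pass, with a median of 0.04. Over all genes, 10.0% rose and 12.2% fell. Those of the 40 that did not pass lay on both sides of 0, down to -0.32 for LOX. Of the 40, 18 had a parental mean at or above the median of all probesets. MMP2, a gelatin-cleaving metalloprotease, rose to 8.23 ± 0.09 in the TRIM71 line, against 6.93 ± 0.10 in the parental line (1.30, adjusted p = 2.9e-04). SPARC, a collagen-binding matrix protein, rose by 0.88 (adjusted p = 2.8e-04) and FSTL1, a secreted glycoprotein, by 0.74 (adjusted p = 6.2e-04). The 10 fibroblast markers are all among these 40 genes, so they are not a separate set. Their mean log2 level lay between 5.45 and 5.56 in TRIM71 arrays and between 5.47 and 5.56 in parental arrays. Of the 10, 1 rose, PDGFRA (0.34), and 0 fell. Without parental replicate 3, 1 of the 40 genes fell.

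Other cadherins and EMT factors are read beside the 22.2% of all genes that passed. Of 18 further cadherins, 1 fell, CDH23 (-0.64, adjusted p = 0.015), and 17 did not pass, and only 2 of the 18 had a parental mean at or above the median of all probesets. The CDH23 call ended without TRIM71 replicate 1 or 2 or parental replicate 2 or 3 (adjusted p up to 0.058), and 2 of the 18 fell without TRIM71 replicate 3. Of 13 other EMT transcription factors, ETS1 rose (0.74, adjusted p = 8.7e-04), PRRX1 fell (-0.36, adjusted p = 0.036) and 11 did not pass. Leaving out any array except TRIM71 replicate 2 ended the PRRX1 call (adjusted p up to 0.114).

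TGF-beta is a known inducer of ZEB and SNAI genes. Of 18 genes of its ligands, receptors, signal carriers and latency proteins, 6 rose, 4 fell and 8 did not pass (median 0.05). Over all genes, 10.0% rose and 12.2% fell. The ligand gene TGFB2 fell to 6.81 ± 0.04 in the TRIM71 line, against 7.76 ± 0.10 in the parental line (-0.95, adjusted p = 5.1e-04). The latency proteins LTBP4 (-0.60) and LTBP3 (-0.55) fell as well, and the LTBP4 call ended without TRIM71 replicate 2 or parental replicate 2 (adjusted p up to 0.0502). SMAD7 (0.71), SKIL (0.69) and SMURF1 (0.53), whose products restrain the pathway, rose. Their relatives SKI (0.06, adjusted p = 0.52) and SMURF2 (-0.07, adjusted p = 0.50) did not pass. Activity of the pathway was not tested. The other 4 that passed, named after their values were seen to complete the counts, went both ways. The signal carrier SMAD2 (0.33), the ligand TGFB1 (0.32) and the latency protein LTBP1 (0.23) rose, and the ligand TGFB3 (-0.40) fell. Without any array but TRIM71 replicate 1, the calls of TGFB1 (adjusted p up to 0.099) and LTBP1 (up to 0.080) ended, and TGFB3 lost its call without TRIM71 replicate 1 or 3 or parental replicate 1 or 3 (up to 0.094). The calls of TGFB1 and LTBP1 also ended with median centring of the arrays and with the replicate number as a further term of the fit. That of the fallen TGFB3 ended with this further term too (adjusted p = 0.096), and with cyclic loess normalization. In the main fit ligands and latency proteins each had members in both directions, but the risen ones were only TGFB1 and LTBP1.

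**Figure D5:**
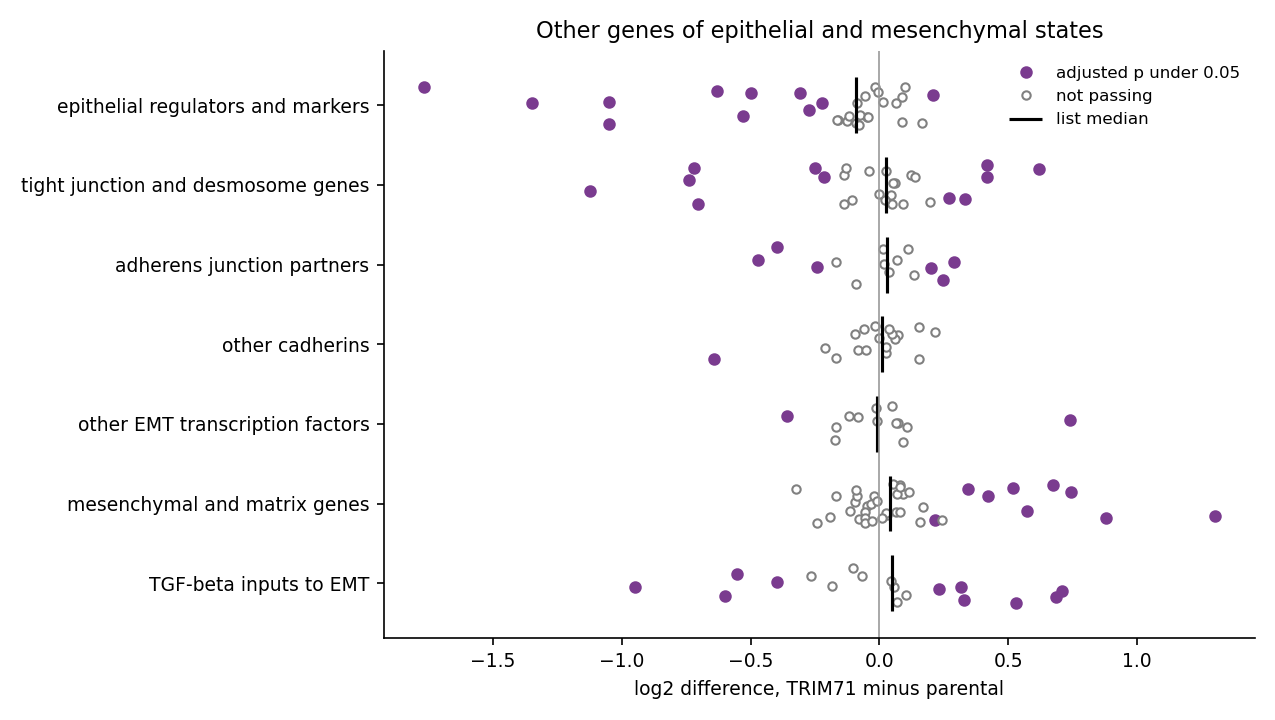
Log2 difference, TRIM71 minus parental, of the measured genes of 7 lists; each point is a gene, filled at an adjusted p under 0.05, with vertical scatter only to separate points, and black bars are list medians. The filled points of the epithelial list are on the negative side except FOXA1, those of the mesenchymal and matrix list are all positive, and junction lists hold both.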

How the data were processed

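RNA of 6 arrays was measured, 3 per line. The deposited table holds log2 values from RMA, run by the authors; affy is named too, per the submitters' processing notes. RMA corrects background, equalises the probe distributions of arrays and summarises each probeset, so a change in total mRNA per cell cannot be seen. The number of arrays limits the precision. Versions and the genome build behind the array annotation are not given in the sources used here. Probesets with 1 gene symbol (19158 of 32321) stood for 18404 genes, each by its probeset of highest mean. RefSeq (GRCh38.p14) gave chromosomes and gene order.

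limma 3.58.1 in R 4.3.3 was fitted to all probesets with the line as its term (lmFit, eBayes). Genes passed at a Benjamini-Hochberg adjusted p under 0.05 over all probesets. The procedure was tested on simulated data with few changed probesets and independent noise, which does not measure error rates on these arrays. The genes described and the lists were chosen with earlier results of these arrays known. Named besides the 10 genes and TRIM71 were up to 3 passing genes per list and direction with the smallest adjusted p, up to 3 passing neighbours per member by size of difference, and the 3 nearest patterns of CDH1, EPCAM and ZEB1. Markers, extremes of a range and genes that did not pass are named in places as well. Alternatives covered normalization, the variance model, dim probesets, the collapse of probesets, the neighbour window, a replicate block and each array left out. Annotation named several genes for 1388 probesets and none for 11775, which were fitted but not named.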

Additional observations from a re-analysis of the deposited data

How the results depend on the processing

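No member changed sign under the alternatives run for it except SNAI1 (-0.04 to 0.08) and SNAI2 (-0.01 to 0.12), whose groups overlap. CDH1 ranged from -1.71 to -1.61, CDH3 from -2.16 to -1.97, EPCAM from -1.51 to -1.43, CDH2 from 0.40 to 0.44, ZEB1 from 0.73 to 0.78, ZEB2 from 0.63 to 0.73, VIM from 0.38 to 0.42 and FN1 from 0.66 to 0.74.

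Over all genes, 1848 rose and 2244 fell. With the replicate block, 1019 rose and 1371 fell; with 1 array left out, the range was 979 to 1485 risen and 1336 to 1709 fallen. Fewest rose without TRIM71 replicate 2 (979), parental replicate 2 (994), TRIM71 replicate 1 (1121) or parental replicate 3 (1185), and fewest fell without TRIM71 replicate 1 (1336) or parental replicate 2 (1365). The deviations of same-numbered arrays from their group means correlated at 0.07, -0.19 and 0.11. Those of differently numbered arrays correlated between -0.28 and 0.24. With 3 arrays per group the deviations are tied to each other, so this does not settle whether the numbers pair the arrays.

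The counts of listed genes moved by over 1.5 times as follows. The replicate block gave 0 risen adherens junction partners, 0 risen epithelial genes and 0 fallen EMT factors. Median centring also gave 0 risen epithelial genes and 0 fallen EMT factors. Fallen EMT factors numbered 2 with quantile normalization, either intensity trend, either filter on dim probesets and 1 probeset per gene. The filter at the median left 0 fallen cadherins. With 1 array left out, 0 to 1 adherens junction partners rose and 1 to 3 fell, 0 epithelial genes rose, 0 to 1 EMT factors fell, 0 to 2 cadherins fell and 0 to 1 mesenchymal genes fell. With 10 neighbours on each side in place of 5, the median was 0.04 for FN1 and 0.11 for EPCAM, against 0.15 for each with 5, and the small medians of CDH2 (0.02), SNAI2 (0.03) and VIM (-0.08) changed sign. Counts without chromosome 2, chosen after seeing the data, stayed within 1.5 times of the main ones. The cause of these moves was not tested beyond the fewer arrays or genes in each.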
